A study of Homo sapiens with 6 samples.

Results

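Dystrophin, the product of DMD, is a long rod of spectrin repeats that binds actin filaments at one end and the membrane protein dystroglycan at the other. Around dystroglycan it gathers sarcoglycans, sarcospan, dystrobrevins and syntrophins, and the assembly ties the cytoskeleton to laminin outside the cell. Loss of dystrophin causes Duchenne muscular dystrophy, and the complex is best known from muscle, where utrophin can take over part of its work. Cells other than muscle also make dystrophin products, many of them shorter forms that start at promoters inside the gene, and in breast epithelium dystroglycan serves as a laminin receptor.

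The genes described here are DMD and 9 other genes of this complex, and the comparison asks whether their expression differed between SUM159 cells with silenced spinophilin and control cells. A transcript cluster is the unit of the array, a group of probes along 1 transcript. Members were chosen by gene symbol, and where a gene had several transcript clusters, the one with the highest mean over the 6 arrays represented it. Of the 10 genes listed, DMD, UTRN and SSPN had a transcript cluster with that symbol, 4 transcript clusters in all, out of 14884 named genes and 53617 transcript clusters. DTNA, DTNB, SGCB, SGCD, SGCE, SNTB1 and SNTB2, which encode dystrobrevins, sarcoglycans and syntrophins, were not analysed here. A gene is called measured below if a transcript cluster carried its symbol. The 37519 transcript clusters without a symbol were not assigned to genes, so a gene not counted as measured may still have probes on the array. The list was drawn up when the difference of DMD on these arrays was already known, so the values of DMD describe the arrays and its p-value is no independent support.

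SUM159 is a breast cancer line used as a model of the basal-like subtype. Both groups carried a lentiviral short hairpin RNA and had been selected with puromycin. In the silenced cells the hairpin was directed against spinophilin, a scaffold protein that binds protein phosphatase 1 and actin, and in the control cells it was scrambled. Each group had 3 Affymetrix Human Gene 2.0 ST arrays, labelled 1, 2 and 2d. The methods call them biological triplicates, but the labels tell neither what the letter d means nor whether separate cultures were infected. P-values therefore measure the spread between these samples, which may be technical. A single hairpin and 1 line limit the comparison, and spinophilin itself was not analysed here.

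Expression is given as log2 values, on which a difference of 1 is a doubling, normalised so that all arrays share nearly the same distribution. The array medians lay between 5.19 and 5.23. VIM, CD44 and MET, which mark mesenchymal-like breast cancer lines, had control means of 12.6, 9.92 and 10.25. The keratins KRT5 and KRT14, which mark basal epithelium, had control means of 4.57 and 4.51. The 14 measured luminal markers had control means from 3.76 for AGR2 to 8.44 for KRT18, with the hormone receptor genes ESR1 and PGR at 4.34 and 3.82, EPCAM at 4.25, GATA3 at 6.28 and XBP1 at 8.0. Values of separate genes come from different probes, so these levels give no order between genes. Over all transcript clusters, 110 passed an adjusted p under 0.05 in the limma fit, which is 0.205%, and 91 of them, 0.17%, were higher in the silenced cells.

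DMD expression was higher in the spinophilin-silenced cells. Its log2 values were 5.3, 5.49 and 5.38 on control arrays 1, 2 and 2d, and 6.0, 6.09 and 6.07 on silenced arrays 1, 2 and 2d. Every silenced array lay above every control array, and the lowest silenced value exceeded the highest control value by 0.51. The means were 5.39 ± 0.093 in control cells and 6.05 ± 0.046 in silenced cells (SD, n = 3 each). The difference was 0.66 on the log2 scale (standard error 0.0842, 95% interval 0.46 to 0.86, adjusted p = 0.0478 from limma over all transcript clusters). This is 1.58-fold, with an interval of 1.38-fold to 1.82-fold. Over the 9 pairs of 1 silenced and 1 control array, the difference ran from 0.51 to 0.78.

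**Figure D1:**
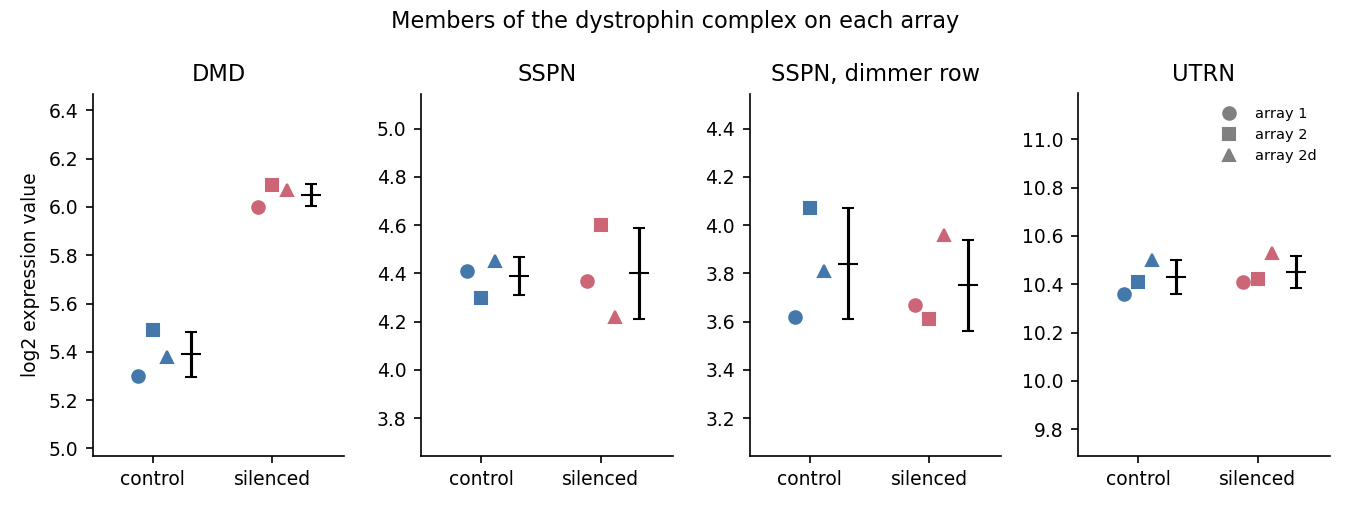
Log2 expression value (vertical axis, spanning the same height in each panel) of DMD, SSPN by its brighter and its dimmer transcript cluster, and UTRN on the 3 control and 3 silenced arrays. Symbols are arrays 1, 2 and 2d, and black bars are the mean ± SD of each group. The silenced arrays of DMD sit between 6.0 and 6.09, above the control arrays at 5.3 to 5.49, and in the other panels the groups overlap.

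UTRN encodes utrophin, the autosomal relative of dystrophin, which has the same actin and dystroglycan binding ends and is made in most tissues. Its log2 values were 10.36, 10.41 and 10.5 on control arrays 1, 2 and 2d, and 10.41, 10.42 and 10.53 on the silenced arrays in the same order. The groups overlapped almost entirely. The means were 10.43 ± 0.072 and 10.45 ± 0.065 (SD, n = 3 each). The difference of 0.03 (standard error 0.0828, adjusted p = 0.974 from limma) had a 95% interval of -0.17 to 0.22, which is 0.891-fold to 1.17-fold. The upper end of this interval lies below the lower end of the interval of DMD. That is a description and no test, since DMD was listed for its known difference.

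SSPN encodes sarcospan, a small protein that crosses the membrane several times and sits with the sarcoglycans. Its brighter transcript cluster had log2 values of 4.41, 4.3 and 4.45 on control arrays 1, 2 and 2d, and of 4.37, 4.6 and 4.22 on the silenced arrays. The silenced arrays lay on both sides of the control arrays. The difference was 0.01 (standard error 0.115, 95% interval -0.26 to 0.28, adjusted p = 0.995 from limma). The dimmer transcript cluster had means of 3.84 ± 0.23 in control and 3.75 ± 0.19 in silenced cells (SD, n = 3 each) and a difference of -0.09 (standard error 0.147, 95% interval -0.44 to 0.26, adjusted p = 0.945 from limma). The brighter one lay at the 33.8th percentile of mean expression and the dimmer one at the 23.7th, and no detection call came with the deposited values.

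Thus 1 of the 3 measured genes, DMD, passed an adjusted p under 0.05, beside 0.205% of all transcript clusters. By the criteria of the study's methods, 1.5-fold or more with p under 0.05 before adjustment, it was again DMD alone, beside 1.33% of all transcript clusters. DMD was also the only one of the 3 whose groups did not overlap, beside 12.7% of all transcript clusters. Since DMD headed the list for its difference, nothing follows from these counts about the complex. The rise of DMD exceeded the change of UTRN on the same arrays by 0.63, and that of SSPN by 0.65, on the log2 scale. The value of DMD minus that of UTRN was higher on every silenced array than on any control array, by at least 0.46, and for DMD minus SSPN by at least 0.3. These are differences between changes, given as a description, and the levels of separate genes cannot be set against each other on this array.

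**Figure D2:**
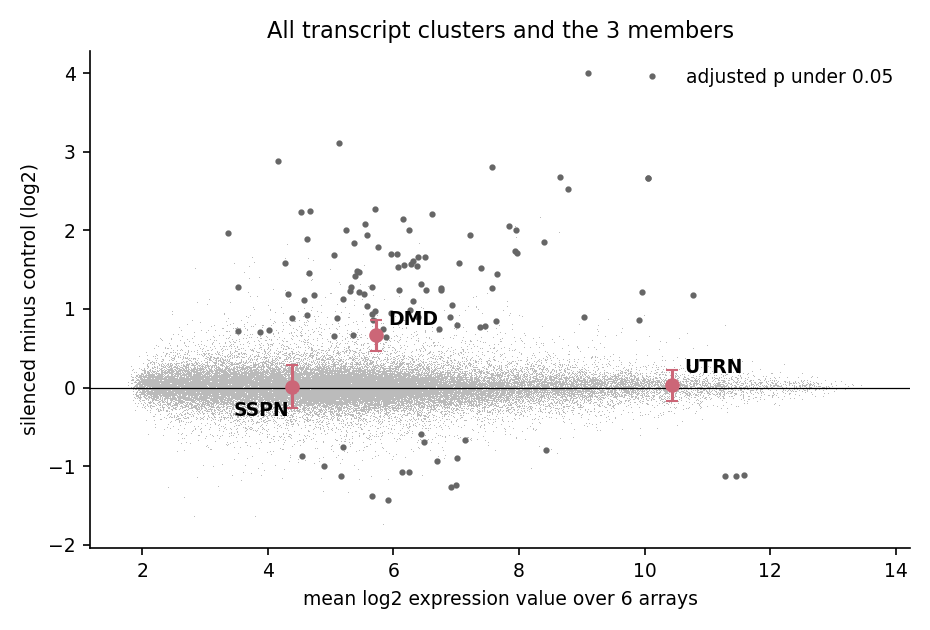
Silenced minus control difference in log2 expression (vertical axis) against mean log2 expression over the 6 arrays (horizontal axis) for all 53617 transcript clusters in light grey, with the 110 at an adjusted p under 0.05 in dark grey. DMD, SSPN and UTRN are shown with their 95% intervals at differences of 0.66, 0.01 and 0.03, and DMD lies at the lower edge of the dark grey points above 0.

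The rise of DMD was small among the genes that passed. Of 14884 named genes, 23 were higher and 10 lower at an adjusted p under 0.05, and DMD ranked 22nd of the 23 by size and 32nd of the 33 by p-value. TSPAN12, a tetraspanin gene, stood just before it (difference 0.66, adjusted p = 0.0478 from limma), and GAGE13, a cancer-testis gene, just after it (difference 1.86, adjusted p = 0.0485 from limma). The next gene, GAGE12H, was outside the threshold (difference 2.04, adjusted p = 0.0504 from limma). The mean level of DMD, 5.72, lay at the 61.4th percentile of all transcript clusters. Its control mean of 5.39 was close to the array medians of 5.19 to 5.23. For DMD too no detection call came with the values, and whether its control signal stood above background was not tested. Of 10983 transcript clusters within 0.5 of this level on the log2 scale, 88 had a larger rise, which is 0.801%.

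The call for DMD did not hold with fewer arrays. When each of the 6 arrays was left out in turn the difference stayed between 0.62 and 0.71, but the adjusted p was 0.146 to 0.229 from limma and no fit passed. When the arrays labelled 2 and 2d were merged to their mean within each group, the difference was 0.67 and the adjusted p = 0.303 from limma. With the replicate label as a block the difference was 0.66 and the adjusted p = 0.173 from limma. An exact permutation test of 3 arrays against 3 cannot give a two-sided p below 0.1.

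**Figure D3:**
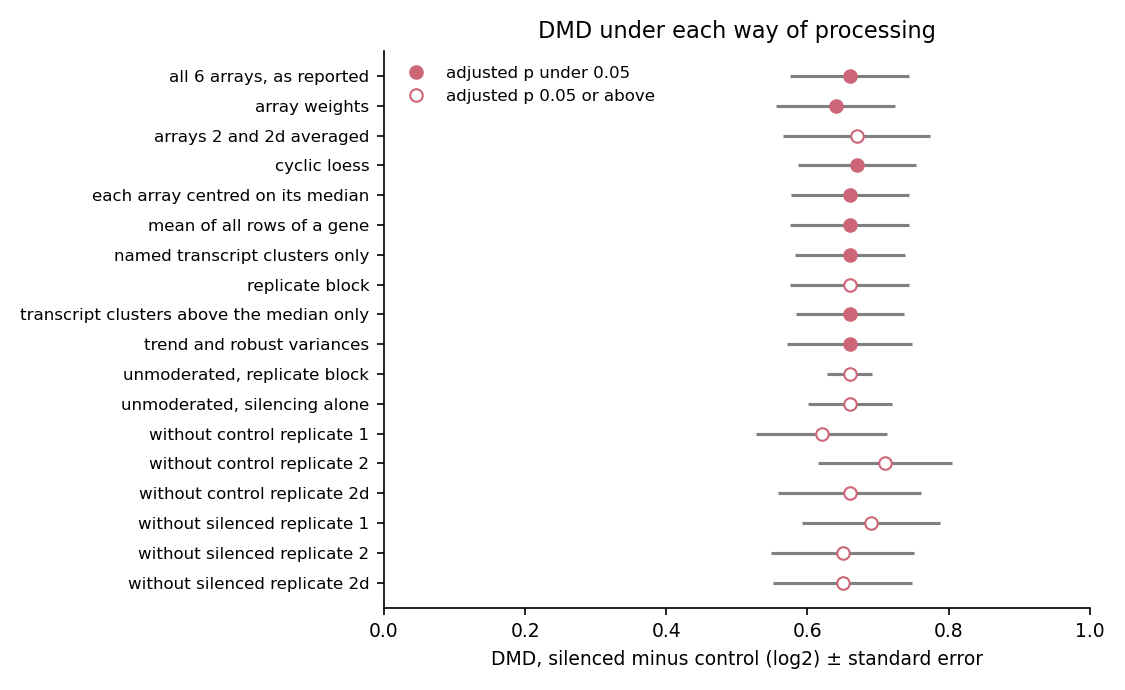
Silenced minus control difference of DMD in log2 expression with its standard error (horizontal axis) in the fit on all 6 arrays and under each of 17 alternatives (vertical axis). Filled symbols have an adjusted p under 0.05 and open symbols do not. The difference lies between 0.62 and 0.71 throughout, and the 6 fits that leave out 1 array are all open.

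DMD had 1 named transcript cluster, and the positions of its probes along the gene were not analysed here, so the values do not say which of the forms that start at different promoters was higher. To show how unlike these starts are, the 250 bases before starts of the 3 genes were taken from RefSeq on GRCh38.p14. All 3 genes matched, with 7 windows for DMD, 2 for UTRN and 2 for SSPN. Whether these windows cover every start of DMD was not checked, and a start without a window is not described. Of the windows of DMD, 1 pair differs in position by 1 base. Their content of G and C was 34.8% to 44.8%, beside a median of 58.0% over 35116 windows of this length. The motifs searched, on both strands, were the TATA motif TATAAA, the GC box GGGCGG, the E-box CANNTG and the CArG box, the serum response factor motif of muscle genes. The windows printed are the only one of DMD with a CArG box, and the UTRN window richest in G and C, in which capitals mark these motifs.

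DMD, minus strand, chrX:33211550-33211799: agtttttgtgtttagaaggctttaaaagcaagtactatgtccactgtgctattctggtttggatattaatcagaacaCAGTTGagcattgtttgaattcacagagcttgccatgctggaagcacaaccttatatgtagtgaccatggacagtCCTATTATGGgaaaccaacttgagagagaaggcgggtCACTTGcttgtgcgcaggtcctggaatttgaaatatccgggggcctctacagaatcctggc

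UTRN, plus strand, chr6:144285085-144285334: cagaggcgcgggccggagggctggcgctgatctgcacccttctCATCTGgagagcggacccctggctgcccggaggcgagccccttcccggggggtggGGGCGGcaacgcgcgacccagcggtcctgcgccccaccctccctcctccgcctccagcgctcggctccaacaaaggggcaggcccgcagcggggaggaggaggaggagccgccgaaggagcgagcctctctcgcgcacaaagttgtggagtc

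The DMD window held 2 E-boxes and 1 CArG box with 44.0% G and C. The UTRN window held 1 GC box and 1 E-box with 73.2% G and C. Over all windows, 10.7% held TATAAA, 42.6% the GC box, 61.8% an E-box and 1.16% a CArG box. Of the 7 DMD windows, 3 held TATAAA, 5 an E-box, 1 the CArG box and 0 the GC box. The 2 windows that differ by 1 base hold the same TATAAA and the same E-boxes, and both are in these counts. A CArG box was not particular to DMD. The SSPN window at chr12:26195086-26195335 also held 1, with 2 E-boxes and 41.6% G and C. The other UTRN window held TATAAA, 1 E-box and no GC box, with 45.6% G and C. The motifs do not overlap in the printed windows. A match describes the letters, not a bound site, and the array values do not say which of these starts was used.

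Genes that lie next to DMD on chromosome X were read for comparison, 10 named and measured genes on each side in RefSeq order. Their median difference was -0.02, and 8 of the 20 lay above 0. Of the 20, 1 passed an adjusted p under 0.05 from limma, beside 0.205% of all transcript clusters. The groups did not overlap for 5 of the 20, beside 12.7% of all transcript clusters. These were TAB3, KLHL15 and ZFX-AS1, higher in the silenced cells, and XK and TSPAN7, lower. Towards lower coordinates, the nearest gene was TAB3, an adaptor of the TAK1 kinase, with a difference of 0.23 (standard error 0.0874, adjusted p = 0.634 from limma). On the other side it was TMEM47, a membrane protein of cell junctions, with 0.05 (standard error 0.093, adjusted p = 0.957 from limma). Between DMD and the only neighbour that passed, TSPAN7, lay 9 other measured genes, with differences of -0.41 to 0.12. TSPAN7, the tenth gene on that side, was lower in the silenced cells (difference -1.37, standard error 0.112, adjusted p = 0.0124 from limma), opposite in direction to DMD. ZFX-AS1, an antisense RNA gene, had a difference of 0.67, as large as that of DMD, but with a standard error of 0.201 (adjusted p = 0.479 from limma). XK, the gene of a membrane protein that carries a blood group antigen, had -0.41 (standard error 0.0773, adjusted p = 0.173 from limma). Over all 569 named measured genes of the X chromosome the median difference was 0.01. Of these, 10 passed an adjusted p under 0.05 from limma, beside 33 of all 14884 named genes. DMD itself and TSPAN7 are among the 10. The groups did not overlap for 103 of the 569, beside 12.7% of all transcript clusters. Of 8 RefSeq genes that overlap DMD, 1 was measured, the microRNA gene MIR3915, at 2.87 ± 0.2 in control and 2.99 ± 0.041 in silenced cells (SD, n = 3 each), with overlapping groups.

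**Figure D4:**
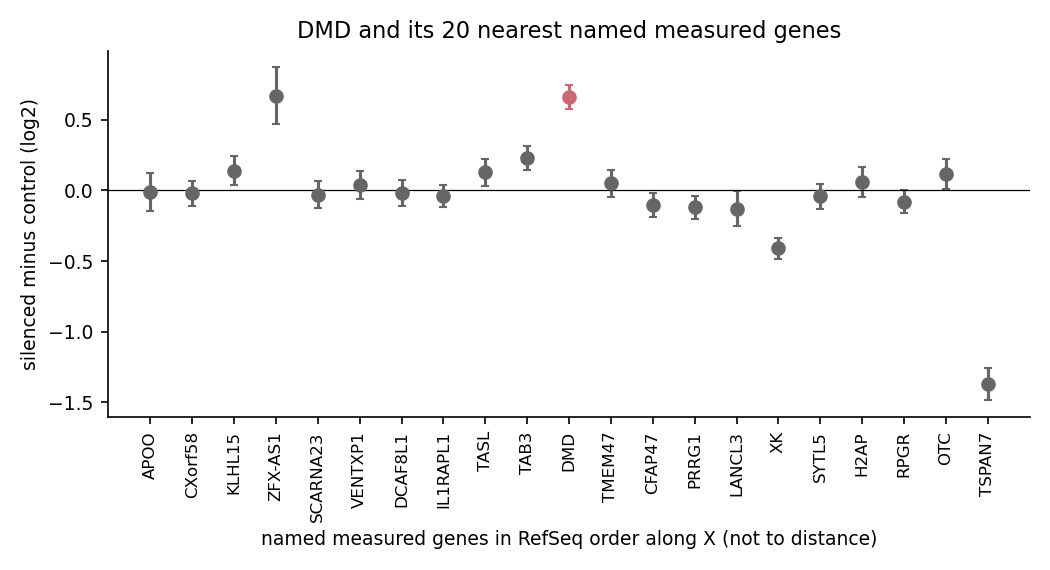
Silenced minus control difference in log2 expression with its standard error (vertical axis) for DMD and the 10 nearest named measured genes on each side of it, in RefSeq order along chromosome X and not to distance (horizontal axis). DMD stands at 0.66, TAB3 and TMEM47 beside it at 0.23 and 0.05, and TSPAN7 at the far right at -1.37.

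Genes that work with the complex were taken from 6 lists of 104 genes, 43 of which were measured. At an adjusted p under 0.05 from limma, 0 of the 43 passed, beside 0.205% of all transcript clusters, and 5 had an unadjusted p under 0.05, beside 7.39% of all transcript clusters. The criteria of the study's methods also gave 0. The groups did not overlap for 8 of the 43, 18.6% beside 12.7%. The median difference was -0.02, beside 0.0 over all transcript clusters, and the largest in size was 0.32.

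Of the other complex genes, 3 of 10 were measured, and the list had a median difference of 0.01. NOS1, the neuronal nitric oxide synthase that the complex holds at the muscle membrane, had log2 values of 5.0, 5.0 and 5.05 on control arrays 1, 2 and 2d, and of 4.89, 4.87 and 4.72 on the silenced arrays. Its silenced arrays all lay below its control arrays. The difference was -0.2 (standard error 0.0827, adjusted p = 0.675 from limma). DRP2, a shorter relative of dystrophin known from the sheath of peripheral nerves, and DYTN, the dystrobrevin relative dystrotelin, had differences of 0.06 and 0.01 (standard errors 0.0989 and 0.12). Dystroglycan itself (DAG1) was not analysed here.

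Dystroglycan binds laminin only after a special sugar chain has been built on it, and 10 of 19 genes listed for that work were measured. Their median difference was -0.09, and 1 of the 10 lay above 0. The smallest p-value was that of DOLK, the kinase that makes dolichol phosphate, with control values of 6.78, 6.63 and 6.66 and silenced values of 6.61, 6.35 and 6.28 on arrays 1, 2 and 2d. The silenced arrays all lay below the control arrays, the closest by less than their own spread. Its difference was -0.28 (standard error 0.11, adjusted p = 0.642 from limma). GMPPA, of the GDP-mannose supply, had a difference of -0.23, the glycosyltransferase gene LARGE2 had -0.16 and the kinase gene POMK had -0.14, with adjusted p = 0.669, 0.815 and 0.842 from limma. DOLK and GMPPA were the 2 of the 10 whose groups did not overlap, beside 12.7% of all transcript clusters.

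Of 19 genes for proteins that dystroglycan binds outside the cell, 7 were measured, and none of them encodes a laminin. The median difference was -0.11, with 2 of the 7 above 0. SLIT2, an axon guidance protein, had control values of 8.92, 8.99 and 9.04 and silenced values of 8.61, 8.66 and 8.76 on arrays 1, 2 and 2d. All its silenced arrays lay below its control arrays, and the difference was -0.3 (standard error 0.0824, adjusted p = 0.418 from limma). The proteoglycan genes AGRN and HSPG2 had differences of -0.21 and -0.11, and SLIT3 had 0.08, with adjusted p = 0.81, 0.87 and 0.896 from limma.

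The integrins are a separate laminin receptor system, and 8 of 18 genes listed for it were measured, all of them for its link to actin. The median difference was 0.0, with 4 of the 8 above 0. LIMS2, an adaptor of the integrin-linked kinase, had control values of 4.83, 4.95 and 4.93 and silenced values of 4.73, 4.51 and 4.5 on arrays 1, 2 and 2d. The difference was -0.32 (standard error 0.095, adjusted p = 0.47 from limma). Its relative LIMS1 had a difference of 0.21 (adjusted p = 0.807 from limma), and VCL, the adhesion protein vinculin, had 0.12 (adjusted p = 0.834 from limma). The groups did not overlap for these 3 of the 8 genes, beside 12.7% of all transcript clusters. In the silenced cells LIMS2 was lower, and LIMS1 and VCL were higher.

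Among partners of the complex at the cytoskeleton and the membrane, 12 of 20 were measured, with a median difference of 0.05 and 9 above 0. MAST2, a kinase that binds syntrophins, had a difference of 0.19, its relative MAST1 had 0.11, CAV3, the caveolin of muscle, had 0.17, and the cytolinker gene PLEC had -0.13, with adjusted p = 0.699, 0.868, 0.816 and 0.897 from limma. The groups did not overlap for 1 of the 12, MAST2, beside 12.7% of all transcript clusters. Of 18 other genes for proteins with spectrin repeats, the building block of the dystrophin rod, 3 were measured. DST, MACF1 and TRIO had differences of -0.04, -0.09 and -0.02 (standard errors 0.0764, 0.0853 and 0.0852), so none of the 3 lay above 0.

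**Figure D5:**
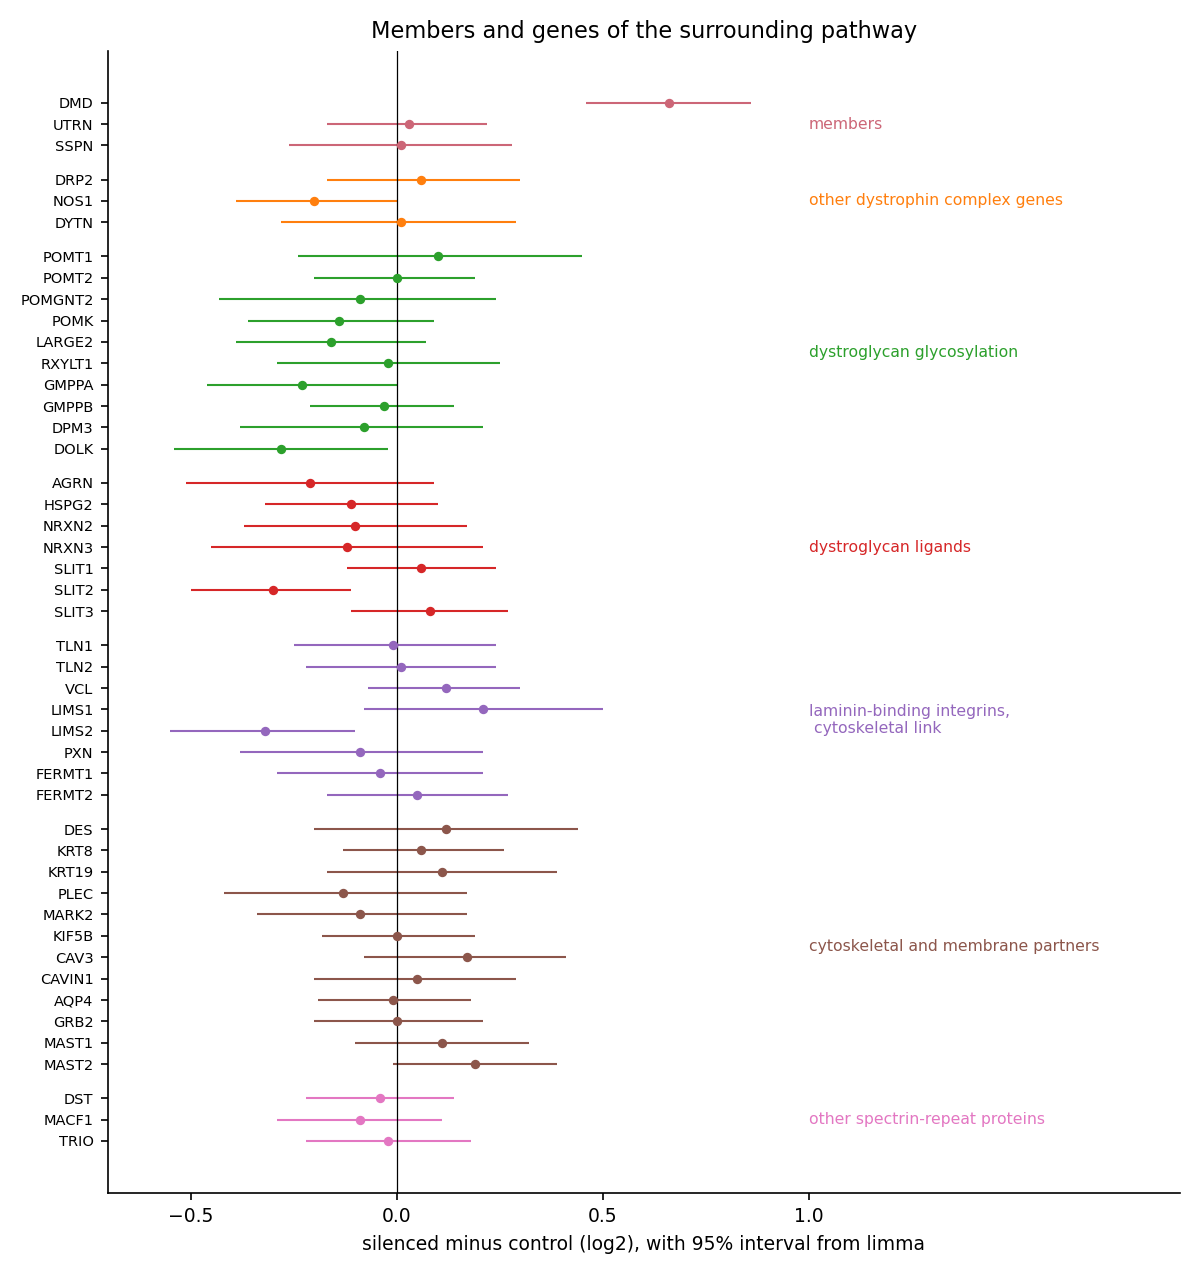
Silenced minus control difference in log2 expression with its 95% interval from limma (horizontal axis) for the 3 measured members at the top and the 43 measured genes of the surrounding lists (vertical axis), coloured by list. The interval of DMD runs from 0.46 to 0.86, and the highest difference among the 43 list genes is 0.21.

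Markers of other cells were read beside the rise of DMD. Of 22 skeletal muscle markers, 9 were measured, 0 passed in limma, 0 had an unadjusted p under 0.05, and their summed level after undoing the logarithm was 348 to 373 on the control arrays and 347 to 365 on the silenced arrays. MYOD1 and MYOG, the defining muscle regulators, had differences of -0.01 and -0.14 (standard errors 0.0788 and 0.117). The groups did not overlap for 1 of the 9, beside 12.7% of all transcript clusters. This was PAX7, which marks muscle stem cells, with 5.64 to 5.75 on the control arrays and 5.77 to 6.06 on the silenced arrays. Its difference was 0.2 (standard error 0.101, adjusted p = 0.766 from limma), of the same sign as that of DMD, and 2 of the 9 lay above 0. Of 10 fibroblast markers, 3 were measured, and their summed level was 98.6 to 103 on the control arrays and 107 to 119 on the silenced arrays, so it was higher in the group in which DMD was higher. This sum followed THY1, with a difference of 0.26 (standard error 0.0855, adjusted p = 0.548 from limma), while DCN, which defines fibroblasts, had -0.26 (standard error 0.0936, adjusted p = 0.59 from limma) and LUM had -0.02. The 14 measured luminal markers summed to 1110 to 1150 and 1080 to 1180, and the 7 measured markers of basal or mesenchymal breast cancer lines to 9180 to 9370 and 8770 to 9130. The latter sum was thus lower on the silenced arrays. VIM, the brightest of the 7, had a difference of -0.04 (standard error 0.074, adjusted p = 0.954 from limma). Of the 7, 2 lay above 0, KRT5 with 0.23 and KRT14 with 0.27. The part of these markers in the result for DMD was not tested. In RNA from whole cultures, more cells with DMD transcripts and more transcripts per cell cannot be told apart. GAPDH and B2M, the reference genes of the PCR assays in the methods, had differences of -0.02 and 0.03 (standard errors 0.0981 and 0.0807).

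The genes whose pattern over the 6 arrays was most like that of DMD were sought among 2348 other named genes with an SD of at least 0.2 over the arrays. LINC02864, a long non-coding RNA gene, had the highest Pearson correlation, 0.995, followed by the glycosyltransferase domain gene GLT8D2 with 0.992, the zinc finger gene ZNF239 with 0.99, the coiled-coil gene CCDC24 with 0.987 and the non-coding RNA gene LINC02393 with 0.986. All 5 were higher on average in the silenced cells, with differences of 1.94, 0.58, 0.93, 0.36 and 1.28 in that order. Their adjusted p were 0.00267, 0.0812, 0.0188, 0.264 and 0.0178 from limma, so GLT8D2 and CCDC24 did not pass. With 6 arrays in 2 groups, any gene that separates the groups correlates with DMD, and 38 genes had a correlation above 0.95.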

How the data were processed

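Gene expression was measured on 6 Affymetrix Human Gene 2.0 ST arrays, 3 of spinophilin-silenced and 3 of control SUM159 cells. RNA was amplified with a NuGEN kit, per the labels. Partek 6.6 was the software of the authors, who applied RMA (background correction, quantile normalization, median polish, log transform), as the methods and processing notes state. The deposited values were taken as log2 expression values, as the base is not stated and the highest value of 13.7 exceeds what other bases allow. Quantile normalization hides differences in total RNA, and RMA compresses changes of dim transcripts.

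Symbols came from the platform annotation, updated through gene identifiers to RefSeq on GRCh38.p14: 16098 of 53617 transcript clusters had 1 symbol, none had several and 37519 were unnamed. A linear model with silencing as its sole term was fitted to all transcript clusters, unfiltered, in limma 3.58.1 (lmFit and eBayes, R 4.3.3), with Benjamini-Hochberg adjustment across the whole table. The unmoderated test of the methods has a further factor not given there, and it was run as an alternative. The fit was first tested on simulated data. The number of arrays limits the precision.

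The members, lists and rules were chosen with earlier results of these data known. Named were all members, up to 4 genes of each pathway list by p-value, the 10 measured neighbours of DMD on each side, the 5 genes most like DMD, and markers. MIR3915 and the genes around the threshold were named after their values were seen.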

Additional observations from a re-analysis of the deposited data

How the results depend on the processing

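The difference of DMD kept its direction in all 17 alternatives, from 0.62 to 0.71, and passed an adjusted p under 0.05 in 7 of them. These 7 were median centring, cyclic loess, array weights, trend and robust variances, transcript clusters above the median only, named transcript clusters only, and the mean of all transcript clusters of a gene (adjusted p = 0.0119 to 0.049 from limma). Without 1 array, DMD had 0.62 to 0.71, 0 members were called in each fit and 15 to 48 transcript clusters passed instead of 110. With arrays 2 and 2d averaged, DMD had 0.67, 0 members and 12 transcript clusters were called. With the replicate block, DMD had 0.66, 0 members and 40 transcript clusters were called. The unmoderated test called 0 members and 0 transcript clusters, with DMD at 0.66 (unadjusted p = 0.000375, adjusted p = 0.268, by a linear model fitted across all genes without the moderation of limma). With the replicate block it also called 0, with DMD at 0.66 (adjusted p = 0.624, without the moderation of limma). The cause of the lower counts was not tested. At 1.5-fold with p under 0.05 before adjustment, where all 6 arrays gave 712 transcript clusters, the unmoderated test gave 507 without and 395 with the block, whereas limma gave 757 with the block, 789 with arrays 2 and 2d averaged and 776 to 896 without 1 array. UTRN and SSPN passed in none. UTRN ranged from -0.01 to 0.07, turning below 0 without control array 1 (-0.0023) and silenced array 2d (-0.01), and SSPN ranged from -0.09 to 0.1, turning below 0 with arrays 2 and 2d averaged (-0.00093), with the mean of its transcript clusters (-0.04) and without control array 2 (-0.03) or silenced array 2 (-0.09). The filter on dim transcript clusters drops SSPN. Whether the replicate labels pair the arrays was not settled. Over all transcript clusters, most of which changed little, same-labelled arrays deviated from their group means with correlations of 1.57e-05 to 0.0926. Of 3 control arrays, 1 correlated best with its own label. In the unmoderated test the block lowered the standard error of DMD from 0.0597 to 0.032 and of UTRN from 0.0562 to 0.0112. It raised that of SSPN from 0.12 to 0.156.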
